A study of Arabidopsis thaliana with 24 samples.

Results

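The 7 genes described here, TCH2 (AT5G37770), TCH3 (AT2G41100), TCH4 (AT5G57560), ZAT10 (AT1G27730), ZAT12 (AT5G59820), WRKY33 (AT2G38470) and WRKY40 (AT1G80840), are known from the first responses of Arabidopsis to touch and other stresses. They were taken by identifier from a deposited table of 33323 genes, and all 7 were found in it. No rule on their values was used, but earlier results of these data were known. The table holds 24 RNA-seq libraries of Arabidopsis thaliana Col-0. Seedlings grew on soil at 22 °C for 14 days in 12 h light (about 100 µmol m-2 s-1) and 12 h dark. They then stayed in constant light (about 60 µmol m-2 s-1) and were harvested 90, 94, 98, 102, 106 or 110 h later. Each of the 12 groups is a tissue, the shoot apex or the true leaves, at 1 of these 6 times, with 2 libraries (replicates 1 and 2), and every library is from 6 to 10 seedlings that were snap frozen and dissected while frozen. All groups share genotype and growth, and the labels describe no touched or stressed plants. The labels speak of 2 independent experiments without tying them to the replicate numbers. The library names contain the word mock, although no treatment is described.

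Touch, wind, wounding, cold and pathogen signals raise free calcium in plant cells within moments, and calmodulin-like proteins bind that calcium through EF hands. TCH2 and TCH3 encode such calmodulin-like proteins, and TCH4 encodes a xyloglucan endotransglucosylase/hydrolase (XTH), which cuts and rejoins the xyloglucan of the cell wall. ZAT10 and ZAT12 encode C2H2 zinc finger proteins of the response to salt, cold, strong light and reactive oxygen. WRKY33 and WRKY40 encode WRKY factors, which bind the W box of target promoters. WRKY33 is known for activating camalexin synthesis genes after fungal attack, and WRKY40 acts with WRKY18 and WRKY60 in defence and abscisic acid responses. Transcripts of all these genes are known to rise within minutes of a stimulus and to fall again soon after.

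In the RefSeq annotation of TAIR10.1, TCH2 lies at chr5:14997514-14999619 (minus strand), TCH4 at chr5:23307006-23308680 (minus) and ZAT12 at chr5:24102814-24103794 (plus). TCH3 is at chr2:17137037-17139700 (plus) and WRKY33 at chr2:16108235-16110766 (plus). ZAT10 is at chr1:9648021-9649323 (minus) and WRKY40 at chr1:30383561-30385499 (plus). ZAT10 and ZAT12 have 1 exon each, WRKY33 has 5 and WRKY40 has 4. The deposited values carry no coordinates, and the genome named in the submitters' processing notes is TAIR10. The library kit does not mark strand, so reads from a gene and a gene overlapping it on the other strand cannot be told apart. TCH2, TCH3, WRKY33 and WRKY40 each overlap at least 1 annotated gene. AT1G80850 over WRKY40 had median levels of 8.91 FPKM in the shoot apex and 6.55 FPKM in leaves. For AT2G38480 over WRKY33 they were 2.63 and 7.79 FPKM, and for AT5G37760 over TCH2 0.09 and 0.12 FPKM. Levels of AT2G09220 and AT2G41105 over TCH3 and of AT2G08965 over WRKY33 are not given here. TCH3 lies 37 bases from AT2G41090, which had median levels of 61.0 FPKM in the shoot apex and 630 FPKM in leaves.

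The 250 bases before the annotated start were read from the TAIR10.1 genome for all 7 genes. Motifs searched on both strands were the W box (TTGACC or TTGACT), the rapid stress response element (CGCGTT), the G box (CACGTG) and the core of the evening element (AATATCT). The windows shown run 5′ to 3′ up to the base before the start, with motif matches in capitals. TCH2 and TCH4 are shown since their leaf transcripts passed the fit of a fixed 24 h wave below, as did 40.9% of all genes. WRKY33 and WRKY40 are shown since their leaf transcripts varied together.
TCH2: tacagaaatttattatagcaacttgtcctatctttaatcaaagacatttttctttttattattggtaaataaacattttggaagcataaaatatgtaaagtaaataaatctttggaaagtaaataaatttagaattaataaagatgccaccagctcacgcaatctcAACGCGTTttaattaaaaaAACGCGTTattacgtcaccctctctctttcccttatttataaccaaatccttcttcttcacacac
TCH4: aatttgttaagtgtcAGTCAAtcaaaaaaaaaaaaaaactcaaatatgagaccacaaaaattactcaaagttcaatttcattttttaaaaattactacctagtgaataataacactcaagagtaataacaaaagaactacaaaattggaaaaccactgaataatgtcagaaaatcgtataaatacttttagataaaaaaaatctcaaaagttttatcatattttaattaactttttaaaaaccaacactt
WRKY33: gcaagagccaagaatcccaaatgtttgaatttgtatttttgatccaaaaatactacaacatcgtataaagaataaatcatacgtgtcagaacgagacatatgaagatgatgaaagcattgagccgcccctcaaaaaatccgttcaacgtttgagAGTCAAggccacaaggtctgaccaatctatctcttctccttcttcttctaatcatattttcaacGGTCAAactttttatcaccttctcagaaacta
WRKY40: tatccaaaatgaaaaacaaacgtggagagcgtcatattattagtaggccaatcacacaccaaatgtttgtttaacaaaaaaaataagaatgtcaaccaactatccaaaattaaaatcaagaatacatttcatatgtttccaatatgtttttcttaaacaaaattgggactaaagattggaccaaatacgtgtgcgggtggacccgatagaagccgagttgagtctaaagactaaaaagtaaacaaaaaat
The TCH2 window (chr5:14999620-14999869) held the rapid stress response element 4 times, on both strands of a pair of palindromes at positions -84 to -77 and -65 to -58 from the start, where the matches on the 2 strands overlap. Of 27437 windows of the same length before protein-coding genes, 2.6% held this element, and among the 7 genes TCH2 was the 1 that did. In the WRKY33 window (chr2:16107985-16108234) there were W boxes at -96 to -91 and -32 to -27, and in the TCH4 window (chr5:23308681-23308930) there was 1 at -235 to -230, all on the minus strand of the window. Either W box was in 28.4% of all windows (TTGACC in 12.2%, TTGACT in 19.1%) and in 2 of the 7. The WRKY40 window (chr1:30383311-30383560) held none of the searched letters, nor did those of TCH3 and ZAT10. The TCH3 window overlaps the annotated genes AT2G41090 and AT2G09220. The ZAT12 window held the evening element core at -151 to -145, which 10.0% of all windows hold, and the G box (6.5% of windows) was in none of the 7.

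Values are FPKM, read numbers scaled by transcript length and library size, and levels are compared between genes on this scale per length. Shoot apex and leaf mesophyll markers matched the labelled tissues. The summed level of 5 shoot apex markers was 146 to 226 FPKM in the 12 shoot apex libraries and 2.57 to 5.19 FPKM in the 12 leaf libraries, and the meristem gene STM was listed at 0 in 6 leaf libraries. For 4 leaf mesophyll markers the sums were 264 to 443 FPKM in the shoot apex and 5055 to 9623 FPKM in leaves, so both tissues held mesophyll transcripts. The 2 genes listed as root markers, WOX5 and SCR, summed to 16.3 to 25.4 FPKM in the shoot apex and 9.64 to 15.1 FPKM in leaves. WOX5 was at 0.548 to 3.05 FPKM in the 12 shoot apex libraries and listed at 0 in all 12 leaf libraries. The leaf sum was thus SCR alone, and root tissue cannot be read from it. Depth estimated from the steps between low values ranged in leaves from 10.8 to 14.2 M reads per library and in the shoot apex from 7.5 to 14.6 M (M for mega).

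TCH3 was the most abundant of the 7 transcripts in leaves and differed most between the tissues on the log2(FPKM + 1) scale. At 90, 94, 98, 102, 106 and 110 h its leaf level was 199, 205, 181, 164, 214 and 183 FPKM in replicate 1. The same times gave 60.1, 58.0, 107, 79.9, 41.7 and 88.7 FPKM in leaf replicate 2. Every leaf library of replicate 1 was above every leaf library of replicate 2. The shoot apex libraries held 7.56, 18.2, 11.8, 12.4, 9.99 and 6.81 FPKM in replicate 1 and 10.5, 4.95, 13.1, 15.8, 4.87 and 27.5 FPKM in replicate 2. The tissues did not overlap, since the highest shoot apex library (110 h, replicate 2) stayed below the lowest leaf library (106 h, replicate 2).

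TCH2 was the most even of the 7. Its leaf level was 32.5, 37.1, 32.8, 24.3, 30.1 and 28.6 FPKM over the 6 times in replicate 1 and 42.1, 46.9, 56.5, 32.0, 21.6 and 23.9 FPKM in replicate 2. Shoot apex values were 30.8, 35.2, 23.1, 19.8, 25.96 and 26.2 FPKM in replicate 1, against 23.6, 26.4, 25.2, 21.7, 18.5 and 23.6 FPKM in replicate 2. The tissues overlapped widely, and 4 of the 12 leaf libraries lay above the highest shoot apex library. The leaf means of the replicates were higher at each of the first 3 times than at each of the last 3, with the highest at 98 h (44.6 FPKM) and the lowest at 106 h (25.9 FPKM).

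TCH4, the wall enzyme gene, had the clearest course over time. In leaf replicate 1 it went through 7.22, 11.8, 15.7, 18.6, 28.0 and 5.78 FPKM, and in leaf replicate 2 through 7.71, 15.9, 43.2, 19.5, 9.77 and 6.55 FPKM. Both series began and ended low, with the highest library at 106 h in replicate 1 and at 98 h in replicate 2. Shoot apex levels were 7.75, 10.9, 10.9, 9.68, 12.0 and 8.47 FPKM in replicate 1 and 6.69, 7.71, 13.6, 14.3, 7.39 and 7.88 FPKM in replicate 2. Leaves and shoot apex overlapped, and 6 of the 12 leaf libraries were above the highest shoot apex library (14.3 FPKM).

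ZAT10 (named STZ in RefSeq) showed the largest excursion of a single leaf library. Its leaf levels were 13.01, 11.5, 6.82, 9.34, 12.4 and 9.94 FPKM in replicate 1 and 4.94, 18.0, 36.4, 11.1, 4.12 and 5.92 FPKM in replicate 2. At 98 h replicate 2 was thus 5.33 times replicate 1. The shoot apex held 1.73, 0.75, 1.09, 0.937, 0.651 and 0.981 FPKM in replicate 1 and 1.82, 1.40, 4.19, 2.35, 0.745 and 1.74 FPKM in replicate 2. Of the 12 leaf libraries 11 were above the highest shoot apex library, which was again 98 h replicate 2. Replicate 2 was above replicate 1 in the shoot apex at all 6 times.

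ZAT12 (RHL41 in RefSeq) was at the edge of detection in the shoot apex. Its values there were 0.35, 0.429, 0.226, 0, 0.186 and 0.468 FPKM in replicate 1 and 0.16, 0.282, 0.979, 0.622, 0.426 and 0.234 FPKM in replicate 2, an estimated 0 to 10.4 reads per library (median 3.5). Leaves held 8.04, 10.1, 3.90, 5.43, 4.61 and 9.71 FPKM in replicate 1 and 1.01, 4.02, 6.87, 2.57, 1.43 and 2.69 FPKM in replicate 2. Every leaf library was above every shoot apex library, although the lowest (90 h, replicate 2) exceeded the highest shoot apex library (0.979 FPKM) by little.

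WRKY33 stood at 24.5, 23.4, 16.2, 18.8, 22.3 and 19.9 FPKM in leaf replicate 1 and at 6.19, 6.06, 20.9, 11.4, 6.87 and 11.5 FPKM in leaf replicate 2. The leaf series differed by a factor of 3.96 at 90 h and met at 98 h, where replicate 2 was the higher. Shoot apex levels were 2.13, 4.02, 3.56, 2.79, 2.58 and 3.74 FPKM in replicate 1 and 1.85, 1.66, 4.20, 3.83, 1.48 and 9.85 FPKM in replicate 2. The library of 110 h replicate 2 was the highest of the shoot apex, as it was for TCH3 and WRKY40. At every time both leaf libraries were above both shoot apex libraries, and over all times 9 of 12 leaf libraries were above the highest shoot apex library.

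WRKY40 was at 8.42, 9.96, 4.36, 4.26, 7.02 and 6.47 FPKM in leaf replicate 1 and at 1.64, 1.49, 5.70, 1.98, 0.692 and 3.14 FPKM in leaf replicate 2. The replicates differed most at 106 h, by a factor of 10.1. Shoot apex values were 0.683, 1.16, 0.865, 0.669, 0.671 and 0.506 FPKM in replicate 1 and 0.506, 0.466, 0.932, 0.654, 0.72 and 1.32 FPKM in replicate 2. The shoot apex values rest on an estimated 5.0 to 17.6 reads per library. All leaf libraries but that of 106 h replicate 2 were above the highest shoot apex library.

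**Figure D1:**
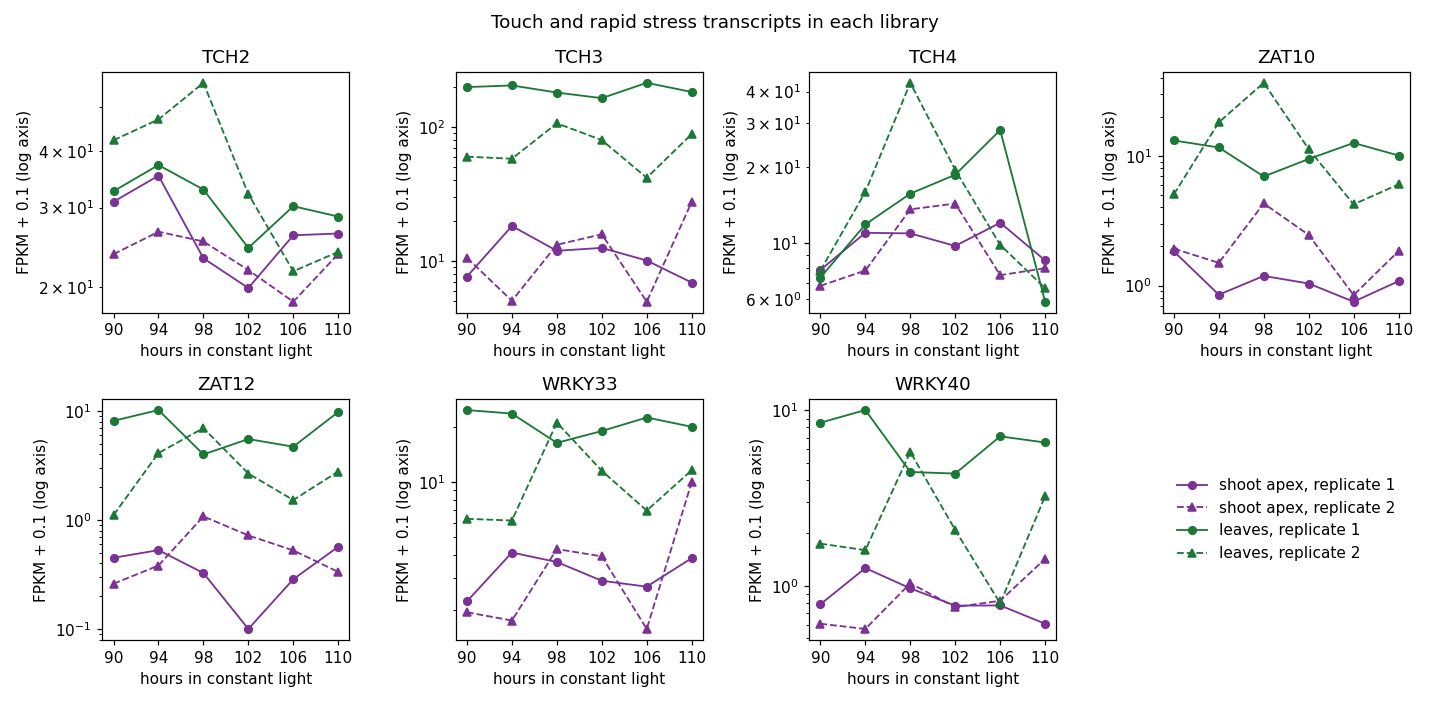
Level of each of the 7 transcripts (FPKM + 0.1, log axis, each panel with its own scale) against hours in constant light, with 1 point per library, shoot apex in purple and leaves in green, replicate 1 as circles and replicate 2 as triangles. TCH3 and ZAT12 separate the tissues in every library, leaf replicate 2 has its highest value at 98 h in all 7 panels, and the ZAT12 library at 0 FPKM (shoot apex, 102 h, replicate 1) is drawn at 0.1.

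By median leaf level the order was TCH3 (136 FPKM), TCH2 (32.3), WRKY33 (17.5), TCH4 (13.7), ZAT10 (10.5), ZAT12 (4.312) and WRKY40 (4.31). TCH3 exceeded TCH2, TCH2 exceeded WRKY33 and ZAT10 exceeded ZAT12 in 12 of 12 leaf libraries. WRKY33 was above TCH4 in 6 of 12, TCH4 above ZAT10 in 9 and ZAT12 above WRKY40 in 7, so those neighbours were not ordered beyond their spread. The shoot apex order was TCH2 (24.4 FPKM), TCH3 (11.2), TCH4 (9.07), WRKY33 (3.17), ZAT10 (1.24), WRKY40 (0.677) and ZAT12 (0.316). There, WRKY33 exceeded ZAT10 in 12 of 12 libraries, TCH3 exceeded TCH4 in 6 of 12, and the other neighbours kept their order in 10 or 11 of 12. Between all neighbours in both orders the ranges over libraries overlapped.

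The first comparison asks which of the transcripts differ between the tissues. All 7 were higher in leaves, TCH3, ZAT12, ZAT10, WRKY40 and WRKY33 by 5.5 to 14 times in median level and TCH2 and TCH4 by 1.3 to 1.5 times. The ratios of leaf to shoot apex medians were 13.6 for ZAT12, 12.2 for TCH3, 8.49 for ZAT10, 6.37 for WRKY40, 5.51 for WRKY33, 1.51 for TCH4 and 1.32 for TCH2. On the log2(FPKM + 1) scale, the shoot apex level less the leaf level, ± SE of a limma fit over 24 libraries, was -3.31 ± 0.35 for TCH3 (adjusted p = 1.5e-07) and -2.22 ± 0.26 for ZAT10 (6e-07). ZAT12 differed by -1.98 ± 0.26 (limma adjusted p = 2.47e-06), WRKY33 by -1.87 ± 0.27 (5.9e-06) and WRKY40 by -1.47 ± 0.29 (0.000187). The added 1 on this scale makes the difference of low transcripts such as ZAT12 smaller than their ratio. TCH2 differed by -0.40 ± 0.10 (limma adjusted p = 0.00184) and TCH4 by -0.45 ± 0.17 (0.0228). The fit takes the libraries of a tissue as independent, although replicate differences correlated between leaf times (r of 0.55 to 0.76). The SE and p-values of tissue differences, here and for other genes below, may therefore be too small. Among all 19986 genes tested, 21.4% were called higher in leaves at an adjusted p under 0.05.

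The median difference of the 7 was -1.87, beside 0.58 over all genes tested, a shift of the whole table toward the shoot apex. With size factors taken as the median ratio of a library to the geometric means of genes (rescaling below), the median of all genes was 0.023 and that of the 7 was -2.32. All 7 were then still called higher in leaves, as were 41.4% of all genes, and TCH2 and TCH4 differed by -1.06 and -1.07. TCH4 lost its call when replicate 2 was left out (-0.34, limma adjusted p = 0.12). In bulk tissue, fewer cells holding a transcript and less transcript per cell cannot be told apart. Phloem markers summed to 150 to 243 FPKM in leaves and 6.5 to 15.9 in the shoot apex and guard cell markers to 14.1 to 19.7 and 1.1 to 2.17, so these cell types moved with the tissue difference, and their part in it was not tested.

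At single times the calls were fewer, with 2 libraries against 2. At 90 h 5 of the 7 were called higher in leaves (16.3% of all genes), at 94 h 4 (15.2%), at 98 h 7 (14.5%), at 102 h 4 (14.2%), at 106 h 4 (15.9%) and at 110 h 3 (16%). TCH3, ZAT10 and ZAT12 were called at all 6 times and WRKY33 at 5, with 110 h missing (-1.17, limma adjusted p = 0.118). WRKY40 was called at 90 and 98 h. TCH2 and TCH4 were called at 98 h, where they differed by -0.81 (limma adjusted p = 0.0087) and -1.05 (0.0342). TCH4 was at 0.36 in the other direction at 110 h, without passing (limma adjusted p = 0.451). Without the leaf library of 98 h replicate 2 the 27 calls over all times became 20.

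**Figure D2:**
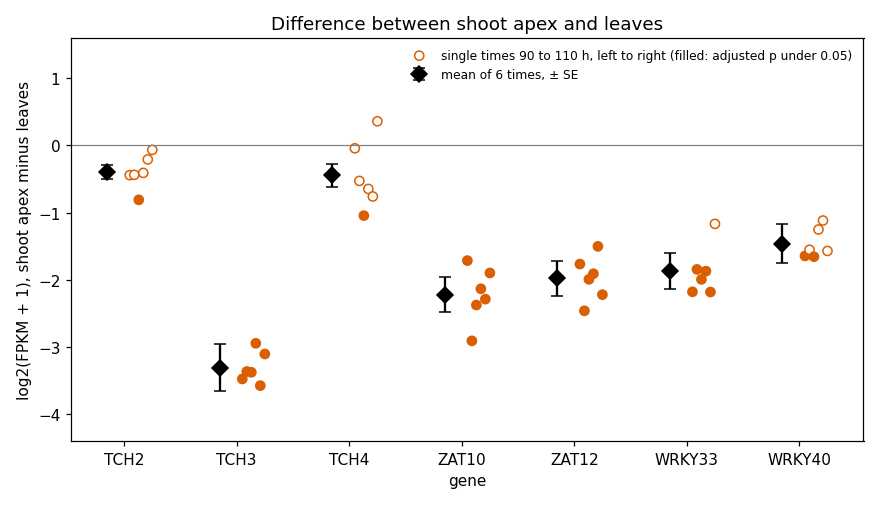
Difference of log2(FPKM + 1), shoot apex minus leaves, of each of the 7 transcripts. Diamonds are means over the 6 times ± SE of the limma fit, and circles are single times from 90 h at the left to 110 h at the right, filled where the limma adjusted p was under 0.05. All 7 diamonds lie below 0, from -3.31 for TCH3 to -0.40 for TCH2, and 1 circle (TCH4 at 110 h) lies clearly above it.

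The second comparison asks how the transcripts move while the clock runs freely in constant light. In leaves TCH4 differed over the 6 times (limma F-test, adjusted p = 0.0154). Its group means of log2(FPKM + 1) spanned 1.92, from 110 h to 98 h. The plain means of the replicates were 6.16 FPKM at 110 h and 29.4 FPKM at 98 h. TCH4 was the 1 of 7 that passed, and 23.2% of all genes did. The TCH4 call was lost without the leaf library of 110 h replicate 1 (limma adjusted p = 0.0534) and in a fit of leaves alone (0.117). TCH2 spanned 0.73 (limma adjusted p = 0.0902) and passed when each tissue had a replicate block (0.033). For the shoot apex none of the 7 passed (4.67% of all genes did) and none had an unadjusted limma p under 0.05. The course over time was called different between the tissues for none of the 7 (2.66% of all genes), and again none had an unadjusted p under 0.05. These tests and the wave fits below have no replicate term. Steady differences between replicates 1 and 2 therefore count as residual spread, which makes a change over time harder to call.

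A wave of fixed 24 h period was fitted to each tissue, over a window of 20 h, which is less than 1 cycle, so that the period itself was not estimated. In leaves 2 of 7 passed, as did 40.9% of all genes. TCH4 had an amplitude of 0.91 ± 0.16 log2 units from mean to peak (SE, limma adjusted p = 0.000294) and a peak at 3.9 ± 0.66 h, counted from the start of constant light modulo 24 h. That peak is of 1 wave common to both replicates. The highest TCH4 leaf library was at 106 h in replicate 1 and at 98 h in replicate 2, so the SE should not be read as their agreement in timing. TCH2 had an amplitude of 0.42 ± 0.091 (limma adjusted p = 0.0027) and a peak at 22.8 ± 0.82 h, and did not pass without replicate 2 (0.21, 0.188). ZAT10 had an amplitude of 0.55 ± 0.24 and did not pass (limma adjusted p = 0.163), but it did without replicate 1 (1.32, 0.00636) and without the leaf library of 98 h replicate 1 (0.77, 0.038). ZAT12 had 0.31 (limma adjusted p = 0.559) and passed without replicate 2 (0.52, 0.0434). Among shoot apex waves none of the 7 passed (13% of all genes did), with none at an unadjusted p under 0.05. None passed for a difference of the wave between tissues (10.6% of all genes). TCH4 was nearest there (adjusted p = 0.218, unadjusted p = 0.0519) and passed without the leaf library of 106 h replicate 1 (0.0418).

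What set the replicates apart is not given in the labels. The replicate numbers divided the leaf libraries for 4 of the 7 transcripts. TCH3, WRKY40, WRKY33 and ZAT12 were higher in leaf replicate 1 than in leaf replicate 2, whereas TCH2, TCH4 and ZAT10 did not pass. Leaf medians over the 6 times were 191 and 70.0 FPKM for TCH3, 6.74 and 1.81 for WRKY40, 21.1 and 9.13 for WRKY33 and 6.73 and 2.63 for ZAT12, replicate 1 first. Replicate 1 was the higher at 6 of 6 times for TCH3 and at 5 of 6 for the other 3, with 98 h the exception in each. Log2 differences with 1 replicate term per tissue were 1.45 ± 0.33 for TCH3 (limma adjusted p = 0.00414), 1.26 ± 0.26 for WRKY40 (0.00218), 1.04 ± 0.28 for WRKY33 (0.0102) and 1.04 ± 0.26 for ZAT12 (0.00755). Of all genes, 20.1% were called higher in leaf replicate 1 and 30.7% in either direction. The 4 calls held in all 24 fits that left out 1 library. Leaving out a shoot apex library cannot change these leaf estimates, only their SE and adjusted p. ZAT12 did not pass with a pseudocount of 0.1 (1.31, 0.0513).

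The other 3 transcripts had small replicate differences in leaves. TCH2 was at -0.19 ± 0.13 (limma adjusted p = 0.316), TCH4 at -0.11 ± 0.25 (0.782) and ZAT10 at 0.033 ± 0.35 (0.963). Replicate 1 was the higher at 2, 1 and 3 of 6 times. In the shoot apex none of the 7 passed, beside 20.7% of all genes in either direction. ZAT10 was there at -0.53 ± 0.35 (limma adjusted p = 0.311) and passed in a fit of the shoot apex alone (0.0464).

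**Figure D3:**
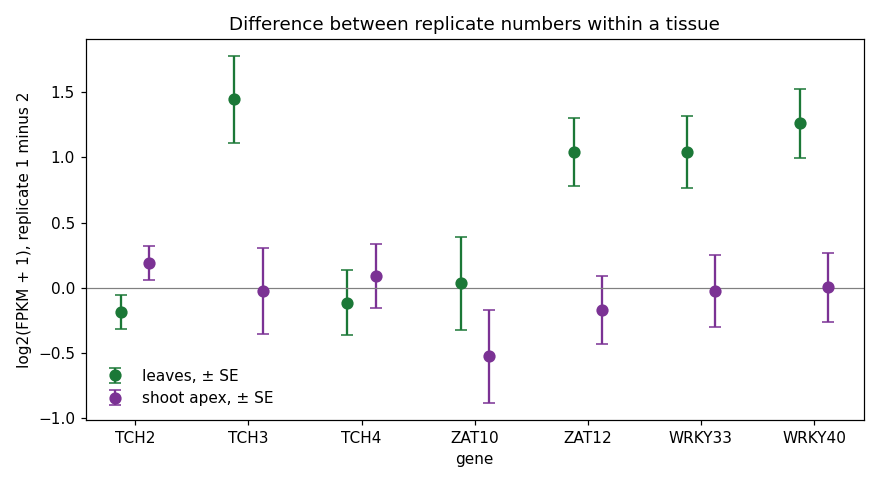
Difference of log2(FPKM + 1) between replicates 1 and 2 of each transcript, as points ± SE of the limma fit with 1 replicate term per tissue, leaves in green and shoot apex in purple. In leaves TCH3, ZAT12, WRKY33 and WRKY40 lie between 1.04 and 1.45, TCH2, TCH4 and ZAT10 lie near 0, and in the shoot apex ZAT10 is the lowest at -0.53.

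Whether this replicate difference itself differed between the tissues was tested after the values had been seen. The leaf minus the shoot apex difference was 1.47 ± 0.47 for TCH3 (limma adjusted p = 0.0363), 1.26 ± 0.37 for WRKY40 (0.0262), 1.21 ± 0.37 for ZAT12 (0.03) and 1.07 ± 0.39 for WRKY33 (0.0632), and 22.5% of all genes passed in either direction. The TCH3 call was lost in 14, that of ZAT12 in 12 and that of WRKY40 in 6 of 24 fits without 1 library, with limma adjusted p up to 0.072, 0.0643 and 0.0596. WRKY33 passed in 4 of those 24 fits (adjusted p down to 0.014) and TCH2, at -0.38 ± 0.19 in the opposite direction (limma adjusted p = 0.157), in 2 of them (down to 0.039).

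The leaf library of 98 h replicate 2 was the highest of its series for all 7 transcripts. Its level was 6.14 times the median of the other 5 libraries of that series for ZAT10, 4.42 times for TCH4, 3.48 times for WRKY40 and 3.04 times for WRKY33. The ratios were 2.68 for ZAT12, 1.77 for TCH3 and 1.76 for TCH2. In leaf replicate 1 no transcript had its maximum at 98 h, since 2 peaked at 90 h, 3 at 94 h and 2 at 106 h. In the shoot apex the library of 98 h replicate 2 had all 7 transcripts above their shoot apex medians and was the highest for ZAT10 and ZAT12. How many of all genes were likewise highest in that leaf library, or above their medians in that shoot apex library, was not counted. Neither count can therefore be called particular to the 7. The leaf rise thus rests on 1 library and was not repeated in replicate 1 of that time. There, 98 h was the lowest time of the series for ZAT10 (6.82 FPKM), ZAT12 (3.90 FPKM) and WRKY33 (16.2 FPKM). Without the leaf library of 98 h replicate 2 all 7 still passed for the tissue difference, 4 for the leaf replicate difference and 2 for the leaf wave.

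Replicates of a group differed more for these transcripts than for most genes. The pooled SD between replicates was 0.32 to 1.1 log2 units in leaves and 0.22 to 0.79 in the shoot apex, beside medians over all genes of 0.16 and 0.15. In leaves WRKY40 (1.10) and TCH3 (1.09) exceeded 98.9% of genes tested, and ZAT12, WRKY33, ZAT10, TCH4 and TCH2 exceeded 98.5%, 98.3%, 98.1%, 95.8% and 86.1%. In the shoot apex TCH3 (0.79) exceeded 99.5% of genes and TCH2 (0.22) exceeded 75.7%.

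Over libraries the transcripts fell into loose groups. Pearson r of log2(FPKM + 1) over the 12 leaf libraries was 0.94 for WRKY33 with WRKY40 (0.945) and TCH3 with WRKY40 (0.937), and 0.925 for TCH3 with WRKY33. In the 12 shoot apex libraries these pairs had r of 0.758, 0.764 and 0.843. ZAT12 with WRKY40 had 0.867 in leaves and 0.168 in the shoot apex. TCH2 and TCH4 were nearest to ZAT10 in leaves (0.70 and 0.656), and TCH2 with TCH3 had -0.054. These are descriptions, since libraries of 1 tissue share replicate numbers and times.

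The genes most like each transcript over the 24 libraries, after subtracting each tissue's mean, were sought among 14856 genes with a mean of at least 5 FPKM in a tissue. WRKY33 was nearest to the calmodulin-binding family gene AT2G26190 (r = 0.909), the ubiquitin ligase gene CNI1 (0.90) and TCH3 itself (0.892). TCH3 had AT1G19020 (0.91), AT2G26190 (0.901) and HIR2 (0.898). WRKY40 was nearest to the zinc finger gene ZAT7 (0.92), the calmodulin-binding factor gene CBP60G (0.908) and AT4G34150 (0.905). ZAT12 also had ZAT7 (0.847), after the tetraspanin gene TET8 (0.876) and the pseudogene AT3G48650 (0.863). ZAT7 had r of 0.952 with WRKY40 in leaves and -0.16 in the shoot apex, where its median was 0 FPKM against 5.45 FPKM in leaves.

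ZAT10 was nearest to SZF1 (0.88), a CCCH zinc finger gene, to the mitochondrial carrier gene DIC2 (0.852) and to AT1G76600 (0.839). TCH4 had the mitochondrial carrier gene AT1G72820 (0.867), the beta-xylosidase gene BXL1 (0.846) and the RING gene AT4G17245 (0.839). TCH2 was nearest to AT5G13100 (0.858), AT4G40000 (0.855) and AT2G43110 (0.852). These 3 differed between tissues by 1.33, 1.78 and 1.72 on the log2 scale, higher in the shoot apex, the direction opposite to TCH2.

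Other genes of the same pathways did not all follow the 7. Their counts stand beside all genes tested, of which 21.4% were called for leaves and 68.6% for the shoot apex on the deposited scale, and 41.4% and 43.1% after rescaling. The 6 calcium sensor genes tested (CML39 was not) had 4 higher in leaves and 2 not passing, with a median of -1.41. CML42 differed by -1.46 ± 0.12, CML23 by -1.48 ± 0.22 and CML9 by -1.36 ± 0.11 (limma adjusted p at most 7.9e-06). Of 6 XTH genes 2 were called higher in leaves, 3 higher in the shoot apex and 1 in neither (median 0.32, with 3, 2 and 1 and a median of -0.098 after rescaling), a shoot apex share below that of all genes on the deposited scale. XTH9 differed by 2.73 ± 0.12 and XTH16 by 1.37 ± 0.11, both higher in the shoot apex also after rescaling. XTH24 differed by -1.51 ± 0.14 and XTH25, which lies next to TCH4, by -1.45 ± 0.21.

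Among 6 zinc finger genes tested (AT3G53600 was not), 5 were higher in leaves and 1 was higher in the shoot apex (median -0.63). AZF1 differed by -1.17 ± 0.22, AZF2 by -0.93 ± 0.12 and AZF3 by 1.62 ± 0.13, each with the same direction after rescaling. Of 12 further WRKY genes 4 were called for leaves, 3 for the shoot apex and 5 for neither, and after rescaling the counts were 9, 2 and 1. WRKY25 differed by -2.05 ± 0.24, WRKY53, known from leaf senescence, by 1.89 ± 0.23 and WRKY48 by 0.91 ± 0.13, and WRKY11 was at 0.38 ± 0.067 on the deposited scale and -0.28 after rescaling. Of 12 ERF and CBF genes 8 were called for leaves, 1 for the shoot apex and 3 for neither (median -0.55, and 10, 1 and 1 after rescaling). ERF104 differed by -1.77 ± 0.24, ERF6 by -0.94 ± 0.19 and RRTF1, of the response to redox change, by 1.07 ± 0.078.

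The 11 kinase, phosphatase, ubiquitin ligase and related signalling genes had 8 called for leaves and 3 for the shoot apex (median -0.73), or 10 and 1 after rescaling. SIB1 differed by -2.23 ± 0.26, the ubiquitin ligase gene PUB23 by -0.94 ± 0.11 and the phosphatase gene AP2C1 by 1.44 ± 0.053. MEKK1 and MKS1 were at 0.38 and 0.39 on the deposited scale and at -0.24 and -0.26 after rescaling. Of 8 genes of CAMTA factors and steadily expressed kinases 5 were called for the shoot apex and 3 for neither tissue, whereas after rescaling 6 were called for leaves and 2 for neither. The count of 5 in 8 is no higher than the 68.6% of all genes called for the shoot apex. MPK6 was at 0.66 ± 0.05, CAMTA1 at 0.48 ± 0.044 and CAMTA2 at 0.42 ± 0.032 on the deposited scale and at -0.0014, -0.16 and -0.18 after rescaling. The 4 reference genes behaved in the same way, with a median of 0.51 on the deposited scale and -0.13 after rescaling. Of 4 genes listed downstream of WRKY33 all 4 were higher in leaves on both scales. CYP71A13, of camalexin synthesis, differed by -1.93 ± 0.48, CYP81F2, of indole glucosinolate modification, by -1.51 ± 0.19 and ACS6, of ethylene synthesis, by -0.83 ± 0.16. CYP71A13 was at 14.0 to 29.5 FPKM in leaf replicate 1. Its leaf replicate 2 (1.69 to 6.07 FPKM) overlapped shoot apex replicate 1 (0.581 to 3.98 FPKM). PAD3 and ACS6 also overlapped between the tissues, and CYP81F2 did not.

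The replicate difference in leaves was shared by 10 of the 12 further WRKY genes, all higher in replicate 1, with 2 not passing (median 0.86, beside 0.021 over all genes). WRKY46 differed by 2.18 ± 0.14, and the partners of WRKY40, WRKY18 and WRKY60, by 1.76 ± 0.15 and 1.61 ± 0.11. WRKY18 had leaf medians of 14.8 FPKM in replicate 1 and 3.16 FPKM in replicate 2, and WRKY60 of 4.82 and 0.898 FPKM. Of the 4 genes listed downstream of WRKY33, 3 were higher in replicate 1 and ACS6 did not pass (-0.29 ± 0.22). The camalexin synthesis gene PAD3 differed by 3.12 ± 0.30 (limma adjusted p = 3.17e-06), with leaf values of 16.4 to 45.7 FPKM in replicate 1 and 0.915 to 8.63 FPKM in replicate 2, and CYP71A13 by 2.31 ± 0.24. These genes, apart from CYP71A13 and ACS6, and the CBF genes below were chosen for naming after their values were seen.

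Other lists were split between the replicates, and several counts moved with rescaling. Of all genes 20.1% were called for replicate 1 and 10.6% for replicate 2 in leaves. Of 6 XTH genes 3 were higher in replicate 1 and 3 in replicate 2, and of 6 calcium sensor genes 3 and 1 with 2 not passing, the same counts as after rescaling. The 6 zinc finger genes had 2 higher in replicate 1, 1 in replicate 2 and 3 not passing, or 1, 1 and 4 after rescaling. Among 12 ERF and CBF genes 1 was higher in replicate 1, 3 in replicate 2 (CBF1, CBF2 and CBF3, at -0.59, -0.61 and -0.72) and 8 did not pass, or 1, 4 and 7 after rescaling. Of 11 kinase and ubiquitin ligase genes 5 were higher in replicate 1 and 6 did not pass, or 3 and 8 after rescaling. Of 8 CAMTA and steady signalling genes 6 were higher in replicate 1 and 2 did not pass, and after rescaling 4 were higher in replicate 1, CAMTA1 was higher in replicate 2 (-0.18) and 3 did not pass. The reference genes had 2 higher in replicate 1 and 2 not passing at a median of 0.13, or 1 and 3 at a median of 0.049 after rescaling. For the further WRKY genes and the genes listed downstream of WRKY33 rescaling left the counts at 10 of 12 and 3 of 4.

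**Figure D4:**
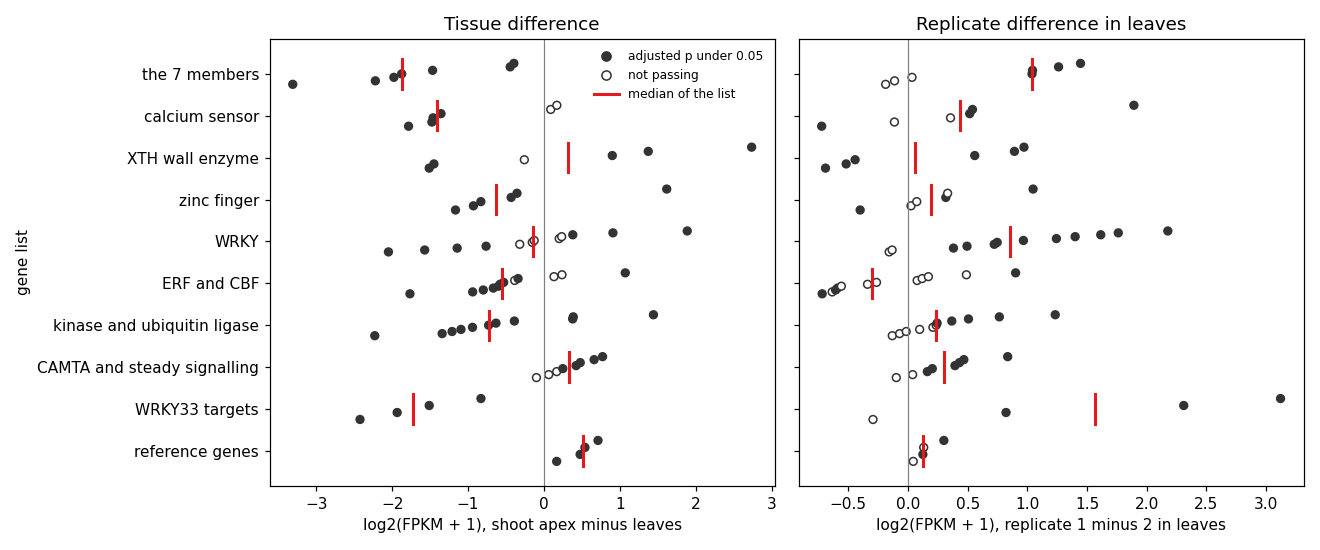
Log2(FPKM + 1) differences of single genes in 10 lists, 1 point per gene, with the list median as a red bar, between tissues (shoot apex minus leaves) at the left and between replicates 1 and 2 in leaves at the right. Filled points had a limma adjusted p under 0.05. The 7 genes have medians of -1.87 and 1.04, the further WRKY genes -0.14 and 0.86, and the reference genes 0.51 and 0.13.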

How the data were processed

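PolyA RNA of the shoot apex and true leaves was sequenced as single-end 50 bp reads. The authors deposited FPKM values of 33323 genes in 24 libraries. Per the submitters' processing notes STAR 2.5.0c, HOMER and TAIR10 were used, and the settings and the treatment of reads shared between gene copies are not given in the sources used here. A gene with a text cell in 1 library was left out.

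Genes with at least 1 FPKM in at least 2 libraries (19986, all 7 members among them) entered the fits as log2(FPKM + 1). The tool was limma 3.58.1 under R 4.3.3 with a trended prior variance, and p-values were adjusted over all of them after Benjamini and Hochberg, at a threshold of 0.05. The model had 12 group means for tissue and time, cosine and sine terms per tissue for waves, and group means with 1 replicate term per tissue for replicate differences. The fits were tested on simulated data with independent noise, smaller than the replicate SD of the 7 genes and without pairing by replicate number. The simulation therefore does not show how the fits behave for these genes. Rescaling divided libraries by size factors, the median ratio to the geometric means of genes. Summaries were made in Python 3.11.15 (pandas 2.3.3, numpy 2.4.6) and drawn with matplotlib 3.10.9. Promoter windows were read from the RefSeq TAIR10.1 genome.

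Differences between replicates 1 and 2 correlated over genes. For pairs of leaf times r was 0.55 to 0.76, shoot apex times 0.16 to 0.44, and pairs of unlike tissue -0.01 to 0.32 (0.05 to 0.32 for the same time). Numbers thus pair the time points within a tissue, and the pairing of tissues was weaker. The settings varied were the pseudocount (0.1), the filter (none, or stricter with a mean of at least 5 FPKM), the scale (rescaled), robust empirical Bayes, a replicate block (shared, or within each tissue), periods of 22 and 26 h, each tissue alone, and omission of single libraries or of a replicate number. The members, lists and tests were chosen with earlier results of these data known. Of each other list the 3 genes with the smallest adjusted p for the tissue difference were named, with up to 3 against the majority of their list, and for likeness the 3 genes with the highest Pearson r. Depths and read numbers are estimates from the steps between low FPKM values, and they limit the precision of the lowest transcripts, ZAT12 and WRKY40 in the shoot apex.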

Additional observations from a re-analysis of the deposited data

Results flagged for a closer look

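For 3 of the 7 transcripts the difference between replicates 1 and 2 differed between leaves and shoot apex by a test of that difference, which was added after seeing the data. Of all genes tested, 22.5% passed that test in either direction. Leaf minus shoot apex, on the log2(FPKM + 1) scale, TCH3 was at 1.47 ± 0.47 (limma adjusted p = 0.0363, leaf replicate 1 higher at 6 of 6 times). WRKY40 was at 1.26 ± 0.37 (0.0262) and ZAT12 at 1.21 ± 0.37 (0.03), with leaf replicate 1 higher at 5 of 6 times for each. In the shoot apex replicate 1 was the higher at 2 of 6 times for TCH3 and at 3 of 6 for WRKY40 and ZAT12. None of the 3 passed without the low-value filter (limma adjusted p = 0.068, 0.0503 and 0.0562), TCH3 and ZAT12 did not with a pseudocount of 0.1 (0.0531 and 0.0634), and TCH3 did not with robust empirical Bayes (0.0569). Groups of 2 libraries are too small to flag single libraries.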

How the results depend on the processing

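The count of members with a tissue difference was 7 and ranged from 6 to 7 without single libraries or replicate numbers, and the 5 members that a stricter filter left were all called. The leaf time effect was called for 1 member, for 2 with the replicate block within each tissue (TCH2 added, limma adjusted p = 0.033), for 0 with each tissue alone and for 0 to 2 without single libraries. The replicate block, shared or within each tissue, changed no other call of a member, apart from calls at single times, where 29 and 32 were called. For the wave difference the count of 0 became 1 without 1 library, a range of 0 to 1. The leaf replicate difference fell from 4 members to 2 with the stricter filter, which tests 5 of the 7, and the shoot apex replicate difference rose from 0 to 1 with the shoot apex alone. The 27 calls at single times became 19 to 39 under other settings, the highest with rescaled libraries, and 20 to 31 without single libraries. No member called in the fit or in an alternative changed sign. Of all values of single members under the alternatives, 2189 kept their side of the threshold, 13 passed it newly and 43 lost it, and the cause was not tested. Over all genes, the calls of a time effect in leaves rose from 4629 to 8740 with the replicate block within each tissue, in the shoot apex from 933 to 2647, of the interaction from 532 to 2293, of the shoot apex wave from 2608 to 4182 and of the wave difference from 2127 to 4034. Depth limits ZAT12 and WRKY40 in the shoot apex, where a library held an estimated 0 to 10.4 and 5.0 to 17.6 reads of them.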
